A study of Mus musculus with 30 samples.

Results

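Voltage-gated sodium channel subunits were followed through RNA-seq of sorted cortical interneurons. The members were the 6 genes whose symbols are Scn1a, Scn3a, Scn8a, Scn2b, Scn3b and Scn4b, each found once among the 23993 genes of the expression table, by a rule that names genes and uses no measured value. The table lists 8 other Scn symbols, which are not described here. The cells came from the medial prefrontal cortex (mPFC) of C57BL/6 mice, 6 to 12 weeks old by the methods of the study, that were heterozygous for a tdTomato reporter (Ai9, which lights up a cell once Cre recombinase has acted in it). In Sst tdT mice Cre was driven by the gene for somatostatin, and in Pvalb tdT mice by that for parvalbumin, so a cell that switched on the driver at any time in its life carries the label. Labelled cells were dissociated with papain and collected by fluorescence-activated sorting. The groups were unstressed Sst females (7 libraries), unstressed Sst males (7), Sst males after 14 days of chronic unpredictable stress, CUS (3), and unstressed Pvalb males (7). The labels describe 6 more samples, from Pvalb females and from females after CUS, and these are not analysed here.

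A voltage-gated sodium channel carries the inward current that starts and propagates the action potential. Its pore is a single large alpha subunit, and smaller beta subunits with one membrane span attach to it, tune its gating and link it to adhesion molecules. In cortex, Nav1.1 (Scn1a) is known above all for fast firing of inhibitory interneurons, Nav1.6 (Scn8a) for the axon initial segment and nodes of neurons of many kinds, and Nav1.3 (Scn3a) for the embryonic brain. The beta subunits encoded by Scn2b and Scn4b bind the pore through a disulfide bond, and that of Scn3b without one.

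On the GRCm38.p6 assembly (mm10) the 6 genes lie on 3 chromosomes. Scn3a (chromosome 2, 65457118 to 65567591) and Scn1a (chromosome 2, 66270781 to 66440837) are 703189 bases apart, and Scn8a is on chromosome 15 (100869863 to 101045938). All 3 beta genes are on chromosome 9, with Scn3b at 40269216 to 40291618, Scn2b at 45117876 to 45130070 and Scn4b at 45138624 to 45154155. Scn2b and Scn4b are neighbours, 8553 bases apart, with no other annotated gene lying wholly between them. Both had a lower median in Sst than in Pvalb samples, as described further on. The 250 bases before their annotated starts are therefore printed here from RefSeq (plus strand, chr9:45117626-45117875 for Scn2b and chr9:45138374-45138623 for Scn4b), with each CG dinucleotide in capitals.
Scn2b: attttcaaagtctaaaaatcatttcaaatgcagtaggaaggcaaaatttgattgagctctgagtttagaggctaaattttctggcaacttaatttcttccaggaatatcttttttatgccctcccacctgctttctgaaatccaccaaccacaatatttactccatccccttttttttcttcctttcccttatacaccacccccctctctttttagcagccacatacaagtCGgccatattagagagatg
Scn4b: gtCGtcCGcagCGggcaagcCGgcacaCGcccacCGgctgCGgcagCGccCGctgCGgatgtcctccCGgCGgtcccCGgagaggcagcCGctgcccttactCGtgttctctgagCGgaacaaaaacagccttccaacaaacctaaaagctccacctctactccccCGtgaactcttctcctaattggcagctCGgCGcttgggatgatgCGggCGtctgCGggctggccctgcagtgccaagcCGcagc

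The pair of upstream stretches differed in composition. That of Scn2b held 1 CG and was 38.4% G and C, and that of Scn4b held 23 CG and was 66% G and C, against medians of 6 CG and 52.4% over 32851 mouse promoters of the same length. RefSeq promoters were matched for 4 of the 6 members, with 5 windows in all, since Scn8a has 2 annotated starts. The first start of Scn8a had 30 CG and the second 9, and the start of Scn1a had 4. 5 short motifs were searched on both strands: TTCAGCACC (in 0.371% of all promoters), GGACAGC (in 6.56%), TATAAA (in 13.6%), CACGTG (in 7.15%) and GGGCGG (in 35.7%). None of them occurred in the 5 windows.

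Several libraries stood apart from their labels or from each other. In 2 pairs the libraries hardly differed: gene by gene, the log2 ratio of SST1-M to SST0-M (both male Sst) had an SD of 0.0212, where the next closest male pair had 0.267, and for the Pvalb libraries PV2-M and PV0-M the values were 0.0170 and 0.225. Each pair was averaged and counted as 1 sample, which left 22 samples (7 Sst females, 6 Sst males, 3 CUS males and 6 Pvalb males). The titles of the 6 Sst males are of unlike form. A short running number stands in 3 of them and in all female titles but SST-F, which is counted with these. A string of digits in the form of a calendar day stands in the other 3 and in all 3 CUS titles. They are called numbered and dated below. FPKM summed to 276023 to 432075 per library in numbered Sst libraries and to 681118 to 1311420 in dated ones. Xist, the transcript of the inactive X chromosome, was at 300.2 to 333 FPKM in 3 Pvalb libraries labelled male (PV5-M, PV4-M and PV1-M) and no higher than 6.64 FPKM in all other male libraries. Marker levels went against a pure interneuron sort, as microglial markers summed to 3337 to 10981 FPKM per sample, neuron markers to 37.7 to 317, interneuron markers to 34.1 to 296 and excitatory neuron markers to 25.3 to 531. Sst itself was at 12.5 to 30.5 FPKM in the 6 Pvalb samples (median 24.9) and at 0 to 49.3 in the 13 unstressed Sst samples (median 5.06). Pvalb was at 0.890 to 5.07 FPKM in Pvalb samples and was listed at 0 in 8 of the 13 Sst samples. The interneuron marker Dlx2 was listed at 0 in all Pvalb samples, and an exact 0 in a table of FPKM can be a failed estimate. Fewer cells of a type and less RNA per cell cannot be told apart in such bulk libraries, which holds for every value below.

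Scn8a was the most abundant member in Sst samples and the only one above 0.4 FPKM in all 22 samples, 0.4 FPKM being the study's limit for an expressed gene. FPKM counts fragments per kilobase of transcript, scaled to the size of the library, so levels of different genes can be set side by side. Over all samples Scn8a averaged 3.57 FPKM, Scn2b 2.08 (above the limit in 21 samples), Scn3b 0.794 (15 samples), Scn1a 0.274 (5 samples), Scn4b 0.250 (7 samples) and Scn3a 0.195 (2 samples). These are low levels for the libraries, with Scn8a at percentile 43.1 and Scn3a at percentile 16.0 of the 18466 genes with a value above 0. The summed level of the 6 members was 7.24 ± 2.01 FPKM in Sst females, 4.35 ± 1.65 in Sst males, 5.19 ± 1.21 in CUS males and 10.9 ± 3.24 in Pvalb males. Scn8a made up 26.8% to 84.0% of that sum in single libraries and Scn2b 6.77% to 54.4%. By median level Scn8a ranked first in all 3 Sst groups and Scn2b ranked first in the Pvalb samples, where the ranges of both genes overlapped.

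**Figure D1:**
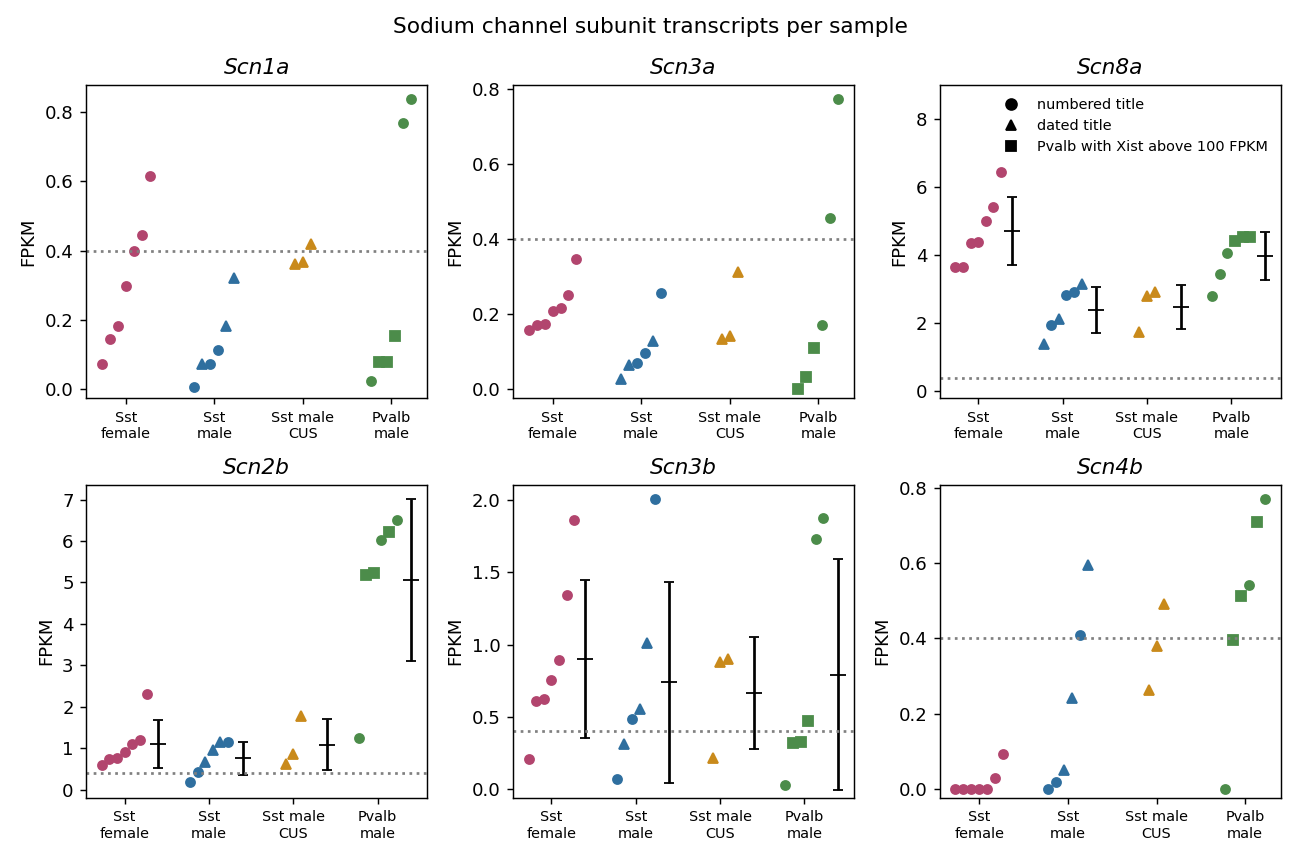
Level of each subunit (FPKM, linear axis starting near 0) in the 22 samples, 1 point per sample, by group, with the mean and SD as a black bar beside the points for Scn8a, Scn2b and Scn3b only, since the other 3 genes are listed at 0 in some libraries. Scn8a lies between 3.66 and 6.45 in Sst females and between 1.38 and 3.16 in Sst males, 5 of 6 Pvalb samples have Scn2b above 5 FPKM, and the dotted line marks 0.4 FPKM.

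**Figure D2:**
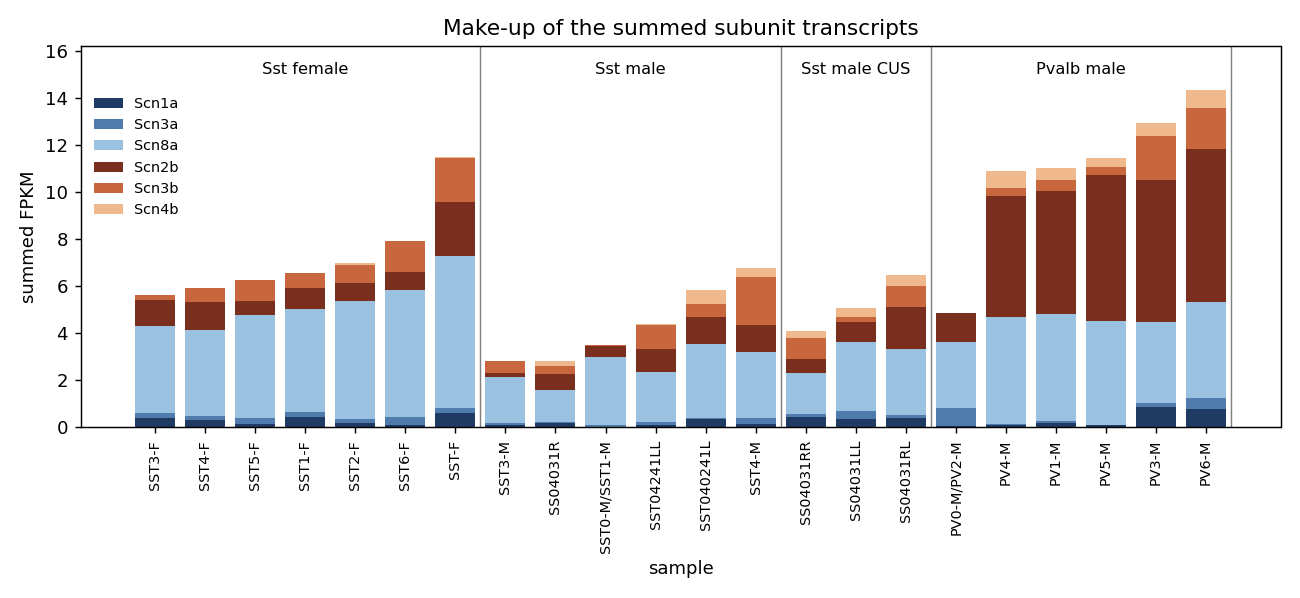
Stacked FPKM of the 6 subunits in each sample (bars start at 0, samples ordered by their sum within a group). Scn8a fills most of the bar in Sst females, Scn2b is the largest part in 5 of the 6 Pvalb samples, and the averaged PV0-M and PV2-M sample (sum 4.86) is the lowest of the Pvalb group.

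Among the alpha subunits, Scn8a differed between the sexes in unstressed Sst mice. Females ranged from 3.66 to 6.45 FPKM (median 4.39, n = 7), numbered males were at 1.94, 2.82 and 2.92 FPKM, and dated males at 1.38, 2.14 and 3.16 FPKM. Every female was thus above every male, and the numbered and dated males overlapped. The mean was 4.71 ± 1.00 FPKM in females and 2.39 ± 0.684 in males (SD, n = 7 and 6), a difference of 0.76 on the log2(FPKM + 1) scale (SE 0.20, 95% interval 0.33 to 1.19, adjusted p = 0.0299 by limma over all genes tested). Of the 3 members that could be tested after the filter on low values (a mean above 0.4 FPKM), Scn8a was the 1 called, where 11.7% of all 14498 genes tested were called, and 2.23% of them had every female above every male.

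The size of the Scn8a difference held in both kinds of males, while its call did not. Against numbered males alone it was 0.67 (SE 0.23, limma adjusted p = 0.108, with 3.41% of all genes called), and against dated males alone 0.84 (SE 0.22, limma adjusted p = 0.00948, with 41.5% of all genes called). In every comparison of females with dated males alone, sex and the kind of title cannot be told apart, since the females are counted as numbered. Leaving out 1 sample at a time gave differences of 0.66 to 0.82, and the adjusted p was above 0.05 in 6 of 13 cases: without SST1-F (0.0568), SST2-F (0.0616), SST5-F (0.0549), SST6-F (0.0621), SS04031R (0.0691) or SST04241LL (0.0574), all by limma.

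Neuron markers went with Scn8a in some of these samples and not in others. Their sum was 54.7 to 63.1 FPKM in 6 females and 266 in SST-F, the female with the highest Scn8a, 86.3 to 118 in numbered males and 39.0 to 42.2 in dated males. The numbered males had more neuron marker signal than 6 of the 7 females and less Scn8a than any female. The dated males were below every female in both. Interneuron markers summed to 174 to 259 FPKM in females, 102 to 296 in numbered males and 34.1 to 91.5 in dated males, and 9 of 10 had a mean above 0.4 FPKM in females and 5 of 10 in males. Microglial markers were at 3337 to 5797 FPKM in females and 4875 to 10981 in males. The part of these cell type differences in the Scn8a result was not tested.

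The other members did not pass the test between the sexes. Scn2b was 1.09 ± 0.578 FPKM in females and 0.762 ± 0.398 in males (difference 0.24, 95% interval -0.21 to 0.70, limma adjusted p = 0.467). Scn3b ranged from 0.205 to 1.86 FPKM in females and from 0.0685 to 2.01 in males, so that the male range held the female range (difference 0.16, interval -0.39 to 0.71, limma adjusted p = 0.698). Scn1a, Scn3a and Scn4b had means under the filter and were compared in a fit with no filter. Scn1a was at 0.0728 to 0.616 FPKM in females (median 0.297) and 0.00655 to 0.323 in males (median 0.0941), with a difference of 0.21 (SE 0.10, limma adjusted p = 0.213). Scn3a was at 0.159 to 0.346 FPKM in females and 0.0263 to 0.255 in males, a difference of 0.14 (SE 0.06, limma adjusted p = 0.178). Scn4b was listed at 0 in 5 of the 7 females, and at 0.0301 FPKM in SST-F and 0.0920 in SST2-F. In males it was listed at 0 in the averaged numbered sample, at 0.0186 and 0.410 FPKM in the other numbered males and at 0.0495, 0.243 and 0.594 in dated ones, and the difference was -0.24 (SE 0.10, limma adjusted p = 0.153). With dated males alone the Scn4b difference was -0.33 (limma adjusted p = 0.0364), in a fit where 6036 of 17719 genes were called.

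**Figure D3:**
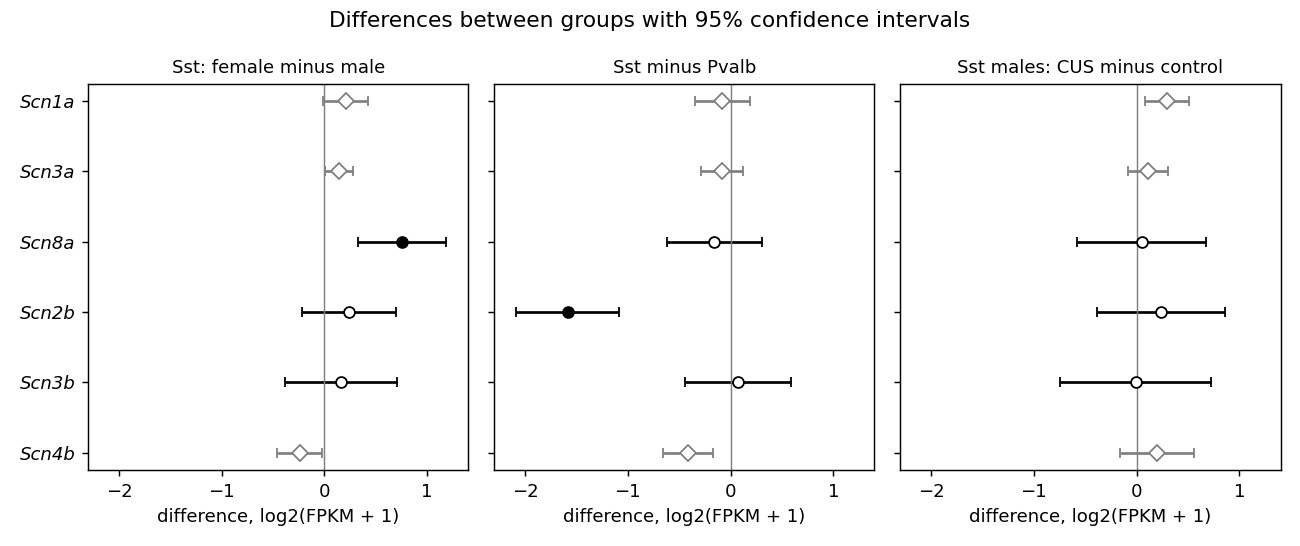
Difference of each subunit in the 3 comparisons on the log2(FPKM + 1) scale, with 95% confidence intervals from limma. Circles are genes above the filter on low values, filled where the adjusted p is under 0.05 (Scn8a for sex at 0.76, Scn2b for Sst minus Pvalb at -1.59), and grey diamonds are genes under the filter, from the fit with no filter and all drawn open.

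Between interneuron lines, the beta subunits Scn2b and Scn4b had lower medians in Sst than in Pvalb samples, with overlap for both genes. Unstressed Sst samples had 0.190 to 2.32 FPKM of Scn2b (median 0.900, n = 13, both sexes), with SST-F highest and the next female at 1.19. The Pvalb samples were at 1.24 (the averaged PV0-M and PV2-M), 5.18, 5.22, 6.03, 6.22 and 6.51 FPKM. Of the 6 Pvalb samples, 5 were above every Sst sample, and the averaged one lay within the Sst range. The means were 0.940 ± 0.512 FPKM in Sst and 5.07 ± 1.95 in Pvalb samples, a difference of -1.59 (SE 0.24, 95% interval -2.09 to -1.08, limma adjusted p = 0.00132). Scn2b was the 1 of 3 members tested that was called, against 7.80% of all genes tested.

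All Pvalb samples are labelled male, so Sst males were also compared alone. This gave -1.72 (SE 0.32, limma adjusted p = 0.0212, with 3.41% of all genes called). The values did not overlap, by the narrow gap between SST4-M (1.16 FPKM) and the averaged PV0-M and PV2-M sample (1.24). Of all 14395 genes in that fit, 499 did not overlap, counting both directions. Since 3 of these Pvalb libraries had Xist above 300 FPKM, the sexes are matched by label only. With Sst females alone the difference was -1.47 (SE 0.28, limma adjusted p = 0.00227, with 25.1% of all genes called). Without dated Sst males it was -1.59 (limma adjusted p = 0.00342, with 1478 of 14483 genes called). Leaving out 1 sample at a time gave -1.50 to -1.85, all 19 past the threshold, the largest size being that without the averaged PV0-M and PV2-M sample (limma adjusted p = 1.02e-05). Leaving out the 3 Pvalb libraries with Xist above 300 FPKM kept the direction and ended the call (-1.38, SE 0.32, limma adjusted p = 0.108). With 3 Pvalb samples left, that fit called 14 of 14519 genes, so few genes of any kind kept a call.

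Markers of excitatory neurons were high in the samples with the most Scn2b. They summed to 470 to 531 FPKM in the 5 Pvalb samples with high Scn2b and to 25.3 in the averaged PV0-M and PV2-M sample, the one with low Scn2b. In unstressed Sst samples the sum was 26.0 to 237 FPKM, and the highest was SST-F, which also had the most Scn2b. The order did not hold below that, since SST3-M had the third highest sum of these Sst samples (101 FPKM) and the lowest Scn2b of all 22 samples (0.190). Neuron markers were likewise high where Scn2b was, with 244 to 317 FPKM in those 5 Pvalb samples, 37.7 in the averaged one and 266 in SST-F. The averaged SST0-M and SST1-M sample, however, had 118 FPKM of neuron markers with Scn2b at 0.436. Interneuron markers did not go with Scn2b in Pvalb samples, since the averaged Pvalb sample had the highest sum of its group (249 FPKM, and 160 to 229 in the others). All 6 excitatory markers had a mean above 0.4 FPKM in Pvalb samples and 5 of 6 in Sst samples. The part of excitatory neurons in the Scn2b result was not tested.

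**Figure D4:**
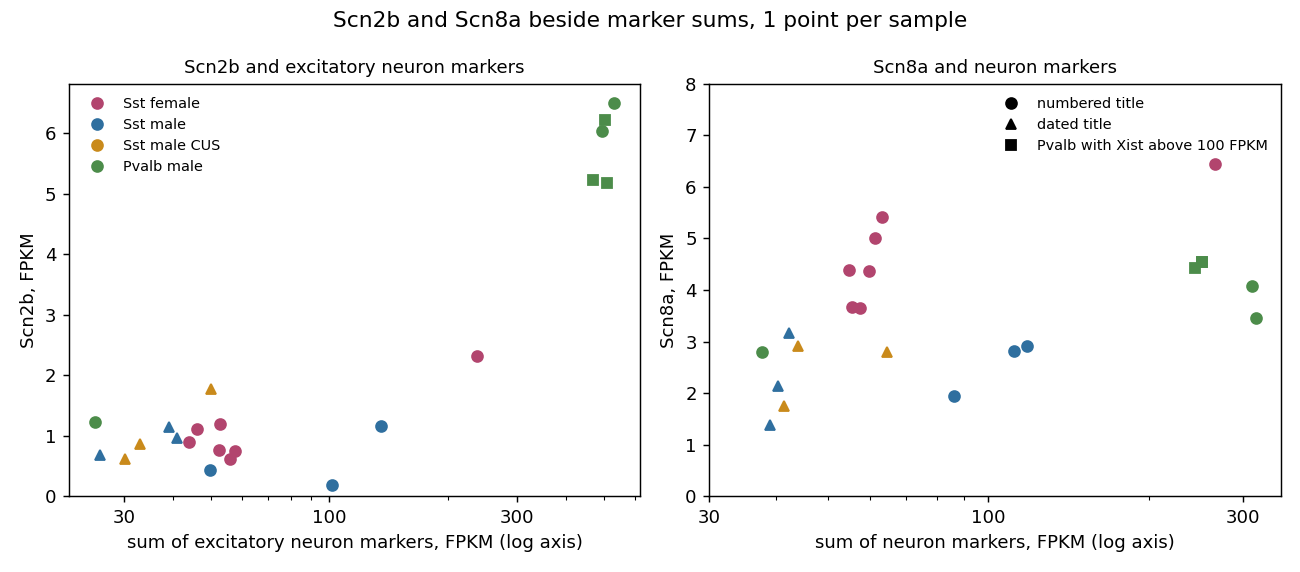
Left, Scn2b (FPKM) against the summed excitatory neuron markers, and right, Scn8a against the summed neuron markers (FPKM, log axis), with 1 point per sample. The 5 Pvalb samples with 470 to 531 FPKM of excitatory markers have the highest Scn2b, while numbered Sst males, at 86.3 to 118 FPKM of neuron markers, have less Scn8a than Sst females.

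Scn4b, whose product can give a resurgent component to the sodium current, was listed at 0 in the averaged Pvalb sample and was at 0.395, 0.512, 0.542, 0.709 and 0.769 FPKM in the others. Unstressed Sst samples were at 0 to 0.594 FPKM with a median of 0.0186, so the groups overlapped through 2 Sst males and the Pvalb sample at 0. In the fit with no filter the difference was -0.42 (SE 0.12, 95% interval -0.66 to -0.17, limma adjusted p = 0.0415, with 6.47% of all genes called). That call rested on small margins, since 6 of the 19 fits that leave out 1 sample kept it: those without SST-F (0.0495), SS04031R (0.0352), SST040241L (0.0171), the averaged SST0-M and SST1-M (0.0407), SST4-M (0.0277) or the averaged PV0-M and PV2-M (0.00359), as limma adjusted p. In the other 13 the adjusted p was at most 0.123. With Sst males alone the difference was -0.29 (limma adjusted p = 0.326, with 327 of 17851 genes called). With Sst females alone it was -0.53 (limma adjusted p = 0.00566, with 3662 of 17646 genes called).

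No alpha subunit passed the test between Sst and Pvalb samples. Scn8a was at 2.80, 3.46, 4.08, 4.42, 4.54 and 4.55 FPKM in Pvalb samples and at 1.38 to 6.45 in Sst samples, with a difference of -0.16 (95% interval -0.62 to 0.31, limma adjusted p = 0.701). Its sign depended on which Sst mice were compared, at -0.56 for males (limma adjusted p = 0.164) and 0.19 for females (limma adjusted p = 0.409). In the order of group means, 4.71 FPKM in Sst females, 3.97 in Pvalb males, 2.49 in CUS males and 2.39 in Sst males, each group overlapped the next. Scn1a, the subunit of fast-firing interneurons, was at 0.0254, 0.0786, 0.0788, 0.153, 0.768 and 0.837 FPKM in Pvalb samples, of which PV3-M and PV6-M are the high values, and the difference was -0.08 (SE 0.13, limma adjusted p = 0.747). Scn3a was listed at 0 in PV5-M and reached 0.456 FPKM in PV6-M and 0.772 in the averaged Pvalb sample, with a difference of -0.08 (SE 0.10, limma adjusted p = 0.661). The beta subunit Scn3b was at 0.0260 FPKM in the averaged Pvalb sample, 0.323, 0.323 and 0.472 in the 3 with high Xist, and 1.73 and 1.87 in PV6-M and PV3-M. Its Sst values, 0.0685 to 2.01 FPKM, covered nearly that whole range (difference 0.07, 95% interval -0.44 to 0.59, limma adjusted p = 0.888).

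CUS gave no call among the members when set against all unstressed males. Of all 14319 genes tested by limma 1 was called (0.00698%), while 1070 had an unadjusted p under 0.05, so the comparison of 3 with 6 samples called almost nothing. Scn8a was at 1.74, 2.80 and 2.92 FPKM after CUS, within the range of unstressed males (difference 0.05, 95% interval -0.58 to 0.68, limma adjusted p = 0.950). Scn2b was at 0.611, 0.863 and 1.78 FPKM (difference 0.24, interval -0.39 to 0.86, limma adjusted p = 0.755), and Scn3b at 0.217, 0.879 and 0.899 (difference -0.01, interval -0.74 to 0.72, limma adjusted p = 0.992). These intervals leave room for changes in either direction.

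Scn1a was the one member whose CUS and control samples did not overlap. After CUS it was at 0.361, 0.369 and 0.418 FPKM, and unstressed males were at 0.00655, 0.0744 and 0.114 (numbered) and 0.0744, 0.182 and 0.323 (dated). In the fit with no filter the difference was 0.30 (SE 0.10, 95% interval 0.08 to 0.51), with an adjusted p of 0.664 by limma, and 3.57% of the 17950 genes in that fit had every CUS sample above every control. Against dated males alone, which share the kind of title with the CUS libraries, it was 0.22 (SE 0.11, limma adjusted p = 0.694). Against numbered males alone it was 0.38 (SE 0.09, limma adjusted p = 0.0434, with 11.7% of all genes called). Stress and the kind of title cannot be told apart in that last comparison. Scn3a was at 0.133, 0.142 and 0.312 FPKM after CUS (difference 0.11, limma adjusted p = 0.692), and Scn4b at 0.263, 0.381 and 0.490 FPKM (difference 0.20, limma adjusted p = 0.703). CUS samples had less microglial marker signal (3864 to 4625 FPKM) than every unstressed male (4875 to 10981), and neuron markers at 41.4 to 64.5 FPKM against 39.0 to 118. As with Scn1a, 2 other cell types had every CUS sample above every unstressed male, with oligodendrocyte markers at 1600 to 1967 FPKM against 391 to 1422 and endothelial markers at 121 to 195 FPKM against 18.3 to 106. Their part in these values was not tested.

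The proteins that anchor, modify or traffic sodium channels were followed as a list of 26 partners. Between the sexes 25 could be tested and 1 was called, Rangrf, a trafficking factor for sodium channels, at 20.9 ± 3.61 FPKM in Sst females and 7.31 ± 4.81 in males with no overlap (difference 1.58, SE 0.30, limma adjusted p = 0.0106). Of all genes tested 2.23% had every female above every male. The median difference was 0.41 over the partners and 0.07 over all genes tested. Of all genes 11.7% were called, and no order of the shares is drawn, since 4 of 24 partners (14.4% of all genes) were called without SST-F and 4 of 25 (14.1%) after quantile normalization. Rangrf kept its call in all 13 fits that leave out 1 sample (differences of 1.36 to 1.82). Against numbered males alone it differed by 1.25 (limma adjusted p = 0.0553). The 1 partner called there was Ank3, an ankyrin that anchors channels at the axon initial segment (0.79, limma adjusted p = 0.0416, with 3.41% of all genes called). Against dated males alone 6 partners were called, all higher in females and Rangrf among them (1.91, limma adjusted p = 0.000132, with 41.5% of all genes called). The number called was 3 without SST040241L, where 1087 of all 14492 genes were called. It was 4 without SST-F (2087 of 14457 genes), SST4-M (2471 of 14485) or the averaged SST0-M and SST1-M (3552 of 14526). Neuron and interneuron markers differed between these males as given for Scn8a, and their part in the partners' values was not tested.

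Between lines 4 of 25 partners were called, against 7.80% of all genes. Lower in Sst than in Pvalb samples were Fgf13, a fibroblast growth factor homologous factor that binds the channel tail (4.88 ± 1.41 and 11.9 ± 3.79 FPKM, difference -1.09, limma adjusted p = 0.00768), Cntnap1, an adhesion protein beside the nodes of axons (2.01 ± 0.985 and 5.32 ± 1.93, difference -1.08, limma adjusted p = 0.0152), and Cntn1, a contactin that binds beta subunits (difference -0.64, limma adjusted p = 0.0434). Fyn, a tyrosine kinase, was higher in Sst samples (15.1 ± 4.42 and 8.60 ± 0.647 FPKM, difference 0.68, limma adjusted p = 0.0426). The groups overlapped for each of these 4 genes, and the median difference was -0.10 over the partners and 0.00 over all genes.

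These calls depended on the samples. Leaving out 1 sample gave 2 to 6 partners. The calls over all genes moved too, from 389 of 14517 without PV5-M to 2130 of 14507 without the averaged PV0-M and PV2-M. The count of partners was 2 in the fits without SST1-F, SST2-F, SST040241L, SST04241LL, PV1-M, PV3-M, PV4-M or PV5-M, where 389 to 891 of all genes were called. It was 6 without SS04031R, where 1468 of 14522 genes were called. Fgf13 and Cntnap1 kept their call in all 19 such fits, Cntn1 in 10 and Fyn in 6, namely those without SST-F, SS04031R, SST3-M, SST4-M, the averaged SST0-M and SST1-M or the averaged PV0-M and PV2-M. Without the Pvalb libraries with high Xist none of the 25 was called (Fgf13 -0.85, limma adjusted p = 0.308, with 3 Pvalb samples left). That fit called 14 of all 14519 genes, so the lack of a call is not particular to the partners. With Sst females alone 12 of 25 were called, 7 higher and 5 lower, where 25.1% of all genes were. With Sst males alone Fyn differed by 0.43 (limma adjusted p = 0.329) and Fgf13 by -0.96 (limma adjusted p = 0.0649), while Cntnap1 (-1.31, limma adjusted p = 0.0481) and Cntn1 (-0.92, limma adjusted p = 0.0465) kept their calls. Excitatory neuron markers were at 26.0 to 237 FPKM in the Sst (median 52.4) and at 25.3 to 531 in the Pvalb samples (median 498). Neuron markers were at 39.0 to 266 FPKM (median 59.6) and at 37.7 to 317 (median 251). The part of these neurons in the partners' values was not tested.

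After CUS none of the 26 partners tested by limma was called against all unstressed males or against dated ones. In 7 of them the CUS and control samples did not overlap, 6 with higher and 1 with lower values after CUS, where 7.10% of all genes tested did not overlap. The median difference was 0.35 over the partners and 0.02 over all genes. Against numbered males alone 6 partners were called, 5 higher and 1 lower in CUS samples, with 16.1% of all genes called. All CUS libraries are dated, so in that comparison stress and the kind of title cannot be told apart. The higher ones were Ank3 (1.33, limma adjusted p = 0.0141), the contactin Cntn2 (1.67, limma adjusted p = 0.0227), Fyn (1.24, limma adjusted p = 0.0333), Bace1, a protease that cleaves beta subunits (1.19, limma adjusted p = 0.0338), and the spectrin Sptbn1 (1.33, limma adjusted p = 0.0466), and the lower one was Fgf11 (-1.26, limma adjusted p = 0.0351). The oligodendrocyte and endothelial markers that were higher after CUS stand beside these values too, and their part was not tested.

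Each member was also set beside the gene whose pattern was most like its own, by Pearson's r of log2(FPKM + 1) over the 22 samples, which differ in line, sex and cell makeup. For Scn2b these were Iqsec3 (r = 0.93), Rell2 (0.92) and Rasl10b (0.92), and for Scn8a they were Grtp1 (0.85), Gpr173 (0.85) and Tst (0.84). Scn1a was closest to Gdap1 (0.88), Cacnb4, a calcium channel beta subunit (0.86), and Ldhal6b (0.85). Scn4b was closest to Rasd2 (0.87), Sptb, a beta spectrin (0.87), and Naif1 (0.86). Scn3b and Scn3a had no gene above 0.81, with Rabgap1 (0.81), Prox2 (0.79) and Tub (0.75) for Scn3b and Ramp1 (0.77), C230037L18Rik (0.77) and Lrch3 (0.75) for Scn3a.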

How the data were processed

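RNA from sorted tdTomato-positive cells was sequenced by the authors, and the deposited table holds FPKM for 23993 genes in 24 libraries. According to the methods, the authors trimmed reads, annotated them against mm9 with TopHat2, aligned them to mm10 with HISAT2, quantified genes with StringTie, took out samples far from their group mean and applied ComBat against batch effects. The submitters' processing notes name TopHat2, Cufflinks and Cuffdiff, and whether ComBat acted on these values is not stated. Read depth per library is unknown from FPKM, so no counting interval is given. FPKM summed to 276023 to 1311420 per library, with 12124 to 14255 genes above 0.4 FPKM. Every dated library had a higher sum than every numbered one, and the main fits did not rescale these sums.

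Near-identical libraries (SD of the log2 ratio under 10% of that of the next pair, over genes above 5 FPKM) were averaged. Genes with a mean above 0.4 FPKM were tested on log2(FPKM + 1) with limma 3.58.1 in R 4.3.3 (trend and robust options, two-sided, Benjamini-Hochberg over all genes tested, threshold 0.05), and differences are on that scale. The code was tested on simulated data. P-values measure the spread between libraries, which nothing in the labels ties to separate animals. Alternatives were the filter, the pseudocount (0.1 and 5), scaling, subsets by title, sex and Xist, a replicate block and leaving out each sample. Promoters came from RefSeq tables (GRCm38.p6). Python 3.11.15, numpy 2.4.6, pandas 2.3.3 and matplotlib 3.10.9 were used. Named genes were the 6 members, the called partners (at most 5 per direction) and for each member the 3 genes above 1 FPKM with the highest r. Partners named for a subset of samples were chosen after their values were seen. The members and lists were chosen with earlier results of these data known. Some genes of the partner and marker lists are not reported here and were left out of the counts, medians and sums of those lists.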

Additional observations from a re-analysis of the deposited data

Results flagged for a closer look

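Of 18 combinations of a member and an unstressed group checked for a sample far from the others by Dixon's test, 3 stood out, where chance gives about 1 in 20 groups. Scn2b in SST-F was at 2.32 FPKM, and the next female was at 1.19. Scn2b in the averaged PV0-M and PV2-M sample was at 1.24 FPKM, and the next Pvalb sample was at 5.18. Scn4b in SST2-F was at 0.0920 FPKM, and the next female was at 0.0301, with the other 5 listed at 0. Because these 5 are tied, the chance rate does not hold for this flag.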

How the results depend on the processing

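The count of members called changed in the following cases, given first for genes above the filter. For sex, where 1 member (Scn8a) was called, quantile normalization, numbered males only, the replicate block and the same numbered samples with no block each gave 0, and leaving out 1 sample gave 0 to 1. For Sst against Pvalb, where 1 (Scn2b) was called, no filter gave 2 (Scn2b and Scn4b), and leaving out the libraries with high Xist or keeping only numbered male Sst gave 0. For CUS every alternative with the filter gave 0. In the fits with no filter, the count for sex went from 1 to 0 with quantile normalization or numbered males only, to 2 (Scn8a and Scn4b) with dated males only, and to 0 to 1 when 1 sample was left out. For lines it went from 2 to 1 with a pseudocount of 0.1 or male Sst only, to 0 without high Xist, and to 1 to 2 when 1 sample was left out. For CUS it went from 0 to 1 (Scn1a) with numbered controls only.

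For sex, where 1 partner was called, quantile normalization gave 4, all libraries kept separate 3, dated males only 6, the replicate block and the same samples with no block 0, and leaving out 1 sample 1 to 4. For lines, where 4 were called, female Sst only gave 12, leaving out the libraries with high Xist or keeping numbered male Sst only 0, and leaving out 1 sample 2 to 6. For CUS, where none was called, numbered controls only gave 6. In the quantile normalized values Scn8a differed by 0.58 between the sexes (limma adjusted p = 0.0619), and the cause of the lost call was not tested. The subsets hold fewer samples.

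Signs turned only for differences that were not called. Quantile normalization turned Scn2b (-0.040), Scn3b (-0.12) and Scn3a (-0.012) for sex, Scn3b (-0.038) for lines, and Scn2b (-0.00061), Scn8a (-0.12) and Scn3a (-0.065) for CUS. For lines, Scn3b was -0.014 with male Sst only and -0.20 without high Xist, Scn8a was 0.19 with female Sst only and 0.0020 without high Xist, and Scn1a was 0.015 with female Sst only. For CUS, Scn3b was 0.10 with a pseudocount of 0.1, 0.079 with all libraries separate, and 0.026 with dated controls or with the kind of title as a covariate, and Scn8a was -0.036 with numbered controls and -0.36 with controls of both sexes. Leaving out 1 sample gave ranges across 0 for lines in Scn3b (-0.066 to 0.23), Scn1a (0.023 without PV3-M, 0.012 without PV6-M) and Scn3a (0.025 without the averaged PV0-M and PV2-M), and for CUS in Scn3b (-0.13 to 0.20) and Scn8a (-0.049 to 0.21).

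Deviations of same-numbered samples from their group means correlated at -0.05 to -0.02 between the sexes and at -0.05 to 0.14 between lines. Differently numbered samples were not set beside them, so whether replicate numbers pair samples was not tested. With the replicate block Scn8a differed by 0.47 between the sexes (limma adjusted p = 0.504, 11 genes called, 24 in the same samples with no block) and Scn3b by -0.20 with or without the block. Scn2b differed by -1.72 between lines with it (limma adjusted p = 0.00898, 1190 genes called, 1655 with no block). No block was fitted for CUS, whose titles hold no running replicate number. The digits in the CUS titles (SS04031LL, SS04031RL and SS04031RR) also stand in that of the dated control SS04031R. They do not stand in those of the dated controls SST040241L and SST04241LL. What these shared digits mean is not stated in the labels.

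Over all genes, 1699 were called for sex, 667 to 3552 when 1 sample was left out, 493 with numbered and 6032 with dated males. They were 910 higher and 789 lower in females, and 723 and 950 after scaling to a common median. For lines 1133 were called, 389 to 2130 when 1 sample was left out, 491 with male and 3638 with female Sst, 14 without high Xist and 13 with numbered male Sst only. For CUS 1 was called, and 2309 with numbered controls only. Fits with no filter on subsets, numbered male Sst only, the unblocked repeat and the alternatives for partners were added after the data were seen. Members near 0.4 FPKM have values that depend on few fragments, and the depth is not known.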

Other observations

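Within the Pvalb group the members moved in different directions between libraries. The 3 libraries with Xist above 300 FPKM had Scn8a at 4.42 to 4.55 FPKM, above the other Pvalb samples (2.80, 3.46 and 4.08). The same 3 libraries had Scn1a at 0.0786 to 0.153 FPKM and Scn3b at 0.323 to 0.472 FPKM, while PV3-M and PV6-M had Scn1a at 0.837 and 0.768 and Scn3b at 1.87 and 1.73. Scn2b did not separate them, at 5.18 to 6.22 FPKM in the 3 and at 6.03 and 6.51 in PV3-M and PV6-M. These samples were grouped from the data, so the differences were not tested.

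The averaged PV0-M and PV2-M sample had the highest Scn3a of all 22 samples (0.772 FPKM) and the lowest Scn3b (0.0260). Among Sst males, SST4-M had the highest Scn3b of all samples (2.01 FPKM), along with the highest excitatory marker sum of its group (135 FPKM).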
